A study of Mus musculus with 6 samples.

Results

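Müller glia are the main supporting cells of the retina, and 35 genes that these cells express for their identity and metabolism were examined here in control and *Yap* cKO mouse retinas. The genes were taken from a list and matched by symbol, and all 35 were found among the 55421 genes of the count table. *Acsbg1*, an acyl-CoA synthetase gene, had 5, 0 and 7 fragments in the control retinas and 2, 7 and 8 in the *Yap* cKO retinas and did not pass the low-count filter, which left 34 members among 16575 genes tested.

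The study compared 3 control retinas (*Yap* fl/fl; mice YR612, YR613 and YR615) with 3 *Yap* cKO retinas (*Yap* fl/fl;*Rax-CreERT2*; mice YR711, YR713 and YR714), each from a different mouse aged 2 months. All 6 mice, controls included, received 4-hydroxytamoxifen at P10 and P14, which activates the Cre recombinase where it is present. No retina that carried Cre without the floxed alleles was among these samples. Per the study's methods, *Rax-CreERT2* deletes *Yap* in Müller glia and also in the non-pigmented epithelium of the ciliary body, and the whole retina was taken after the front of the eye had been cut away, so these are bulk measurements of all retinal cells. The question addressed was which molecular changes accompany the loss of *Yap* at this age.

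Müller glia span the full thickness of the retina. They recycle neurotransmitters and visual chromophore, supply lipids and metabolites to neurons, buffer ions and water, and hold much of the glutathione and metal-binding capacity of the tissue. YAP is a transcriptional co-activator of the Hippo pathway that binds DNA through TEAD factors, and in the mouse retina it is expressed mainly in Müller glia.

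Each library held between 24261799 and 35067068 fragments assigned to genes, and genes of the mitochondrial genome took 2.26% to 2.84% of them. Levels are given as TPM, a share of all transcripts that corrects for gene length and depth. *Yap1* was at 9.48, 9.52 and 9.83 TPM in controls and at 3.99, 3.76 and 3.94 TPM after deletion (log2 fold change -1.36 ± 0.093 SE, adjusted p = 0.000282, edgeR quasi-likelihood test). The labelled tissue was evident from rod genes, with 10 listed genes summing to between 68776 and 77066 TPM, and from the Müller glia gene *Glul* (glutamine synthetase) at 2551 to 3135 TPM. *Rlbp1*, the marker that accompanied the list, was at 718 to 967 TPM in every retina. Not every listed gene was well expressed in this tissue, since *Fgfr3* did not exceed 0.469 TPM and *Hepacam* did not exceed 4.66 TPM in any retina.

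A gene was called differentially expressed when the edgeR quasi-likelihood test gave p-values that, adjusted by Benjamini-Hochberg over all 16575 genes, were at most 0.05, the fold change was at least 1.5 and the mean was at least 5 TPM in 1 group. By these criteria 5 of the 34 members fell in *Yap* cKO retinas, namely *Pdpn*, *Dapl1*, *Gstm1*, *Dbi* and *S100a16*, where 0.585% of all genes tested were called lower. None was called higher, where 0.211% of all genes tested were. At an unadjusted p of 0.05, 1 member (*Dio2*) was higher and 17 were lower, and both the edgeR likelihood ratio test and the DESeq2 Wald test called *Dio2* higher. With the adjusted p alone, *Cp* and *Prdx6* joined the 5, giving 7 members lower against 0.989% of all genes. In whole retinas, fewer cells of a type and less RNA per cell cannot be told apart.

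The fold changes of the members were not uniform. Of the 34, 25 had a lower level in *Yap* cKO retinas and 9 a higher one, and the median of their log2 fold changes was -0.31 (interquartile range -0.54 to 0.01), whereas 49.7% of all genes tested were lower and their median was 0.00. In 16 members every *Yap* cKO retina was below every control retina, against 9.04% of all genes, and in 4 members (*Acsl3*, *Crym*, *Dio2* and *Atp1b2*) every *Yap* cKO retina was above, against 15.2% of all genes. A second list of 27 Müller glia genes, among them *Glul*, *Slc1a3*, *Aqp4*, *Kcnj10*, *Sox9* and *Vim*, was split into 13 lower and 14 higher with a median of 0.00. None of these 27 was called by edgeR; 7 had an unadjusted p of at most 0.05 (5 lower, 2 higher), the likelihood ratio test and limma-voom also called none, and DESeq2 called 1. The SD of the log2 fold changes was 0.49 over the members and 0.22 over the other Müller glia genes. The summed level of the 35 members was 7859 to 8454 TPM in controls and 6674 to 7498 TPM in *Yap* cKO retinas, while the 27 other genes summed to 7702 to 8166 TPM and 7826 to 8351 TPM. The members were listed with results of these data known, so these counts describe the list and are no test of it.

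**Figure D1:**
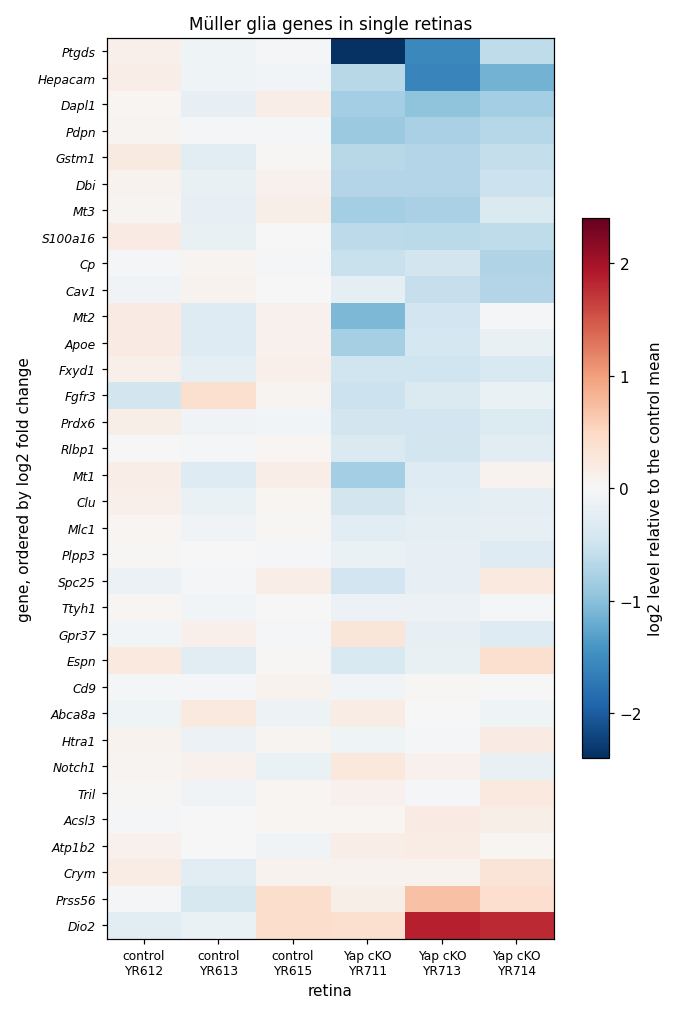
Level of each tested member (rows, ordered by fold change) in each of the 6 retinas (columns), as the log2 difference from the control mean on a colour scale. The upper rows, from *Ptgds* to *S100a16*, are blue in all 3 *Yap* cKO retinas, rows around *Cd9* and *Htra1* are near white, and *Dio2* at the bottom is dark red in YR713 and YR714.

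Retina by retina, the median log2 difference of the members from the control mean was -0.41 in YR711, -0.28 in YR713 and -0.19 in YR714. The medians in the control retinas lay between -0.09 and 0.06. YR613, the control with the lowest median, had 26 of 34 members below the control mean. The other Müller glia genes had medians between -0.06 and 0.02 over all 6 retinas.

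**Figure D2:**
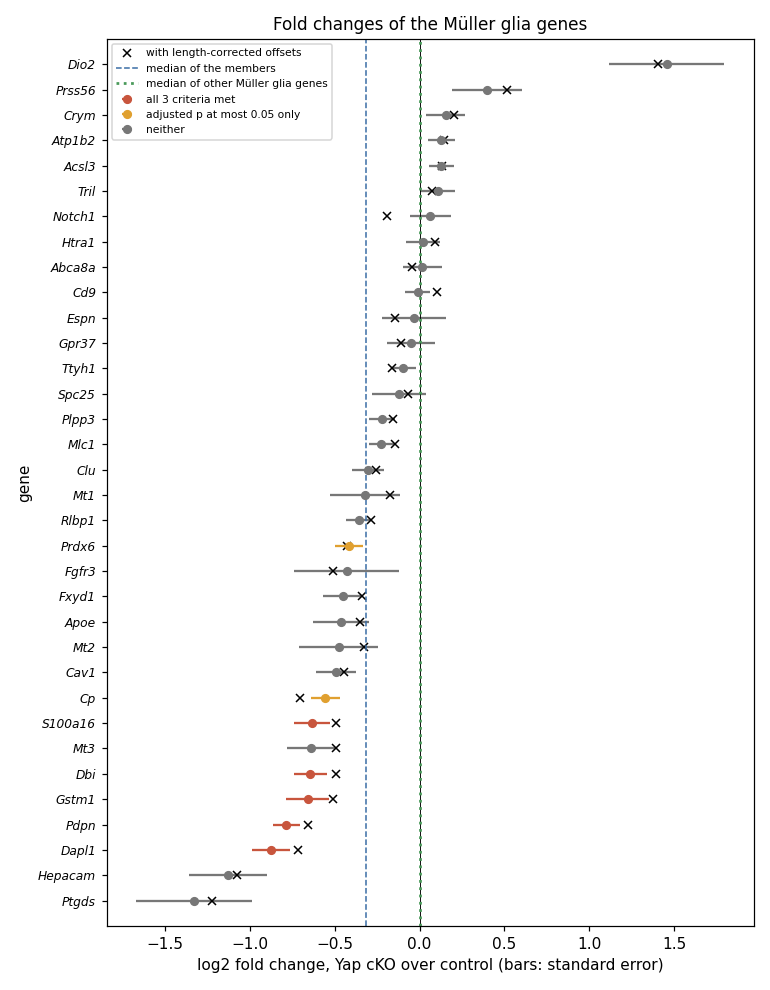
Log2 fold change of each tested member (*Yap* cKO over control, points, with SE bars), coloured by the criteria it met, with the value after the length correction as a cross. The dashed line marks the median of the members at -0.31 and the dotted line that of the other Müller glia genes at 0.00, both before that correction. The points extend from -1.33 (*Ptgds*) to 1.46 (*Dio2*).

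The sequences upstream of the 5 members called lower are shown as part of the stretches searched for motif cores, that of TEAD factors among them. Each is the 200 bases before the RefSeq start of the gene (GRCm38.p6, the build of the count table), 5′ to 3′ on the strand of the gene, with capitals for any match to 1 of 3 motif cores described after them.
Pdpn, chr4:143299565-143299764, - strand: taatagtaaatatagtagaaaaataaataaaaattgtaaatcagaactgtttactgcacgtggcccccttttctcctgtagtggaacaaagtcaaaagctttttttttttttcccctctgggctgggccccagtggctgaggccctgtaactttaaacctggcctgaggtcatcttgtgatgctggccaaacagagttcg
Dapl1, chr2:59484453-59484652, + strand: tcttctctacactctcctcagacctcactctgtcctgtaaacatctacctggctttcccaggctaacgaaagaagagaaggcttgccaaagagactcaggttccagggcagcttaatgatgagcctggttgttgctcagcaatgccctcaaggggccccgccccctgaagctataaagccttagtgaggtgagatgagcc
Gstm1, chr3:108017974-108018173, - strand: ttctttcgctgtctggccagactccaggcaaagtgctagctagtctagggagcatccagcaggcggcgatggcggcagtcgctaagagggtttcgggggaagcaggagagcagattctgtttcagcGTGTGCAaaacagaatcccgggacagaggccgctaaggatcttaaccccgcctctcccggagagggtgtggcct
Dbi, chr1:120121097-120121296, - strand: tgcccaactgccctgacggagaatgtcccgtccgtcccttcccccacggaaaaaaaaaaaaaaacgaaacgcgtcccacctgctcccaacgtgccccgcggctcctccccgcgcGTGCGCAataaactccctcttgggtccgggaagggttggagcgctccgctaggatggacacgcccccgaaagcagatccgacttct
S100a16, chr3:90537054-90537253, + strand: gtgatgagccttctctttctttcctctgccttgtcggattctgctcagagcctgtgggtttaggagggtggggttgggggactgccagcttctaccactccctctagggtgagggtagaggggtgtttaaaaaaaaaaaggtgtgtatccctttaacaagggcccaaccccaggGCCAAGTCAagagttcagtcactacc
The cores were searched on both strands of the 250 bases upstream of each start, namely the TEAD core GGAATG, the metal response element core TGCACNC or TGCGCNC, and the antioxidant response element core TGACNNNGC, whose last letters can overlap the first letters of the second. RefSeq windows were matched for 31 of the 35 members (41 windows), and *Atp1b2*, *Prdx6*, *Clu* and *Crym* were not matched. GGAATG was in 6 of the 41 windows (14.6%) and in 12.6% of the 32851 windows of all genes, and it was in none of the 5 windows above. The 6 belonged to *Abca8a*, *Apoe*, *Cp*, *Dio2*, *Notch1* and *Prss56*, of which *Cp* fell. The antioxidant response element core was in 12.2% of member windows and 10.2% of all windows. A match in such a window is a description and not a binding site. Regions further from the start were not searched, so a window without a match does not speak to binding elsewhere.

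*Pdpn* (chr4:143267431-143299564) encodes podoplanin, a mucin-type membrane glycoprotein of glia and epithelia. Its level was 139, 137 and 135 TPM in the control retinas and 78.3, 83.3 and 86.5 TPM in the *Yap* cKO retinas. The groups were far apart and each was tight, with means of 137 ± 1.92 and 82.7 ± 4.12 TPM (SD, n = 3). *Pdpn* fell by 0.79 on the log2 scale (SE 0.081, 1.73-fold lower, edgeR adjusted p = 0.00236), and it was the only member that met the criteria whichever retina was left out (adjusted p 0.00176 to 0.0192).

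*S100a16* (chr3:90537254-90543151), a calcium-binding protein gene of the S100 family, was at 92.8, 75.7 and 83.8 TPM in controls and at 57.1, 56.1 and 56.1 TPM in *Yap* cKO retinas. The *Yap* cKO retinas were nearly identical, and the lowest control lay well above them. The gene fell by 0.64 on the log2 scale (SE 0.104, 1.55-fold lower, edgeR adjusted p = 0.0238). The call was lost without YR612, YR615, YR711 or YR713 (adjusted p 0.0878, 0.115, 0.0539 and 0.127), and its log2 fold change was under the minimum with length-corrected (-0.49) or GC-corrected offsets (-0.58).

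The other members of this role were *Espn*, encoding an actin-bundling protein, and *Spc25*, encoding a subunit of the kinetochore Ndc80 complex. *Espn* was at 16.4 to 21.6 TPM in controls and 15.5 to 25.2 TPM in *Yap* cKO retinas, and *Spc25* at 157 to 201 and 137 to 215 TPM. In both, the ranges overlapped, with adjusted p of 0.930 and 0.682 in the edgeR fit.

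*Dapl1* and *Rlbp1* are expressed in Müller glia and in the retinal pigment epithelium alike. *Dapl1* (chr2:59484653-59505020), which encodes a small death-associated-protein-like factor, was at 143, 128 and 162 TPM in controls and at 85.5, 77.2 and 83.0 TPM in *Yap* cKO retinas. All 3 *Yap* cKO values lay below the lowest control. *Dapl1* fell by 0.88 on the log2 scale (SE 0.114, 1.84-fold lower, edgeR adjusted p = 0.00789), and the adjusted p was 0.0548 without YR615 and at most 0.0493 without any other retina.

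*Rlbp1* encodes CRALBP, the retinaldehyde-binding protein of chromophore recycling. It was at 908, 933 and 967 TPM in controls and at 775, 718 and 789 TPM in *Yap* cKO retinas. The groups did not overlap, but the difference was small, with a log2 fold change of -0.36 ± 0.075 (SE) and an edgeR adjusted p of 0.0540 that missed the threshold. Without YR613 or YR714 the adjusted p was 0.0285 and 0.0358, but it was up to 0.287 without another retina.

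**Figure D3:**
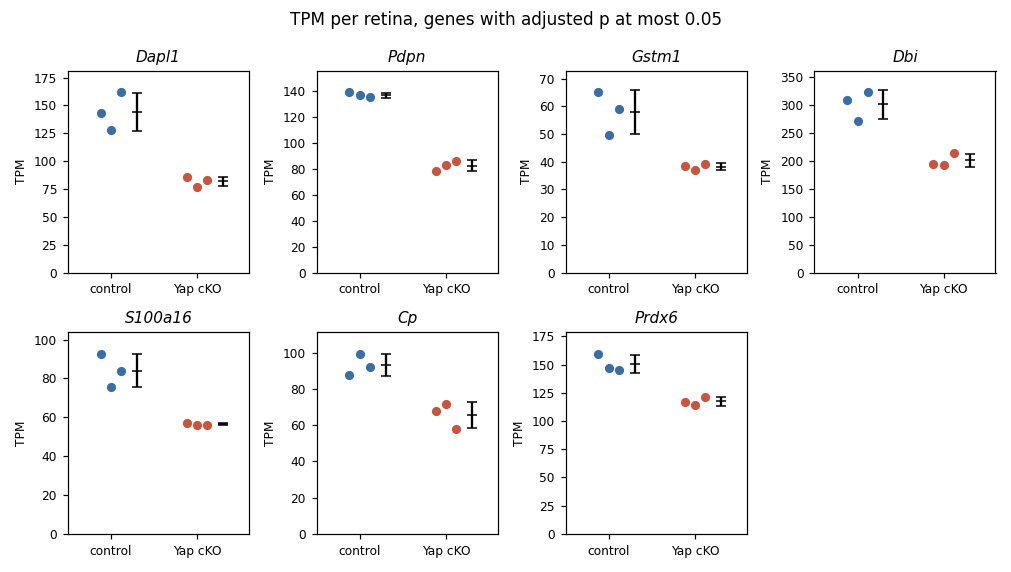
TPM in each retina (points) of the 7 members with an adjusted p of at most 0.05, with group mean and SD (n = 3) beside the points and axes from 0. In all 7 panels the 3 *Yap* cKO retinas lie below the 3 controls, as for *Pdpn* at 78.3 to 86.5 against 135 to 139 TPM.

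Metal-binding and antioxidant genes formed the role with the most members past the adjusted p, 3 of 6, against 0.989% of all genes that were lower at that threshold. All 6 had negative fold changes, as had 49.7% of all genes tested. With length-corrected offsets the log2 fold changes of the 6 ran from -0.71 (*Cp*) to -0.18 (*Mt1*). The members were listed with results of these data known, so this ranking of roles is a description. *Gstm1* (chr3:108012255-108017973), a glutathione S-transferase of the mu class, was at 65.0, 49.6 and 59.2 TPM in controls and at 38.5, 37.0 and 39.3 TPM in *Yap* cKO retinas. The controls varied more than the *Yap* cKO retinas, but the groups stayed apart. *Gstm1* fell by 0.66 on the log2 scale (SE 0.126, 1.58-fold lower, edgeR adjusted p = 0.0412). The call was lost without YR612, YR615, YR711 or YR713 (adjusted p 0.164, 0.175, 0.0837 and 0.195), and with sex as a covariate (0.0637), and the fold was under the minimum with length-corrected offsets (log2 -0.51).

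*Cp* encodes ceruloplasmin, the copper-carrying ferroxidase. It was at 87.6, 99.5 and 92.1 TPM in controls and at 67.7, 71.9 and 57.8 TPM in *Yap* cKO retinas. The lowest value was that of YR714, the retina that was highest among *Yap* cKO retinas for *Dbi*, *Pdpn*, *Mt3* and *Ptgds*. *Cp* fell by 0.56 (log2; SE 0.086, 1.47-fold, just under the fold minimum, edgeR adjusted p = 0.0190), and the adjusted p was 0.0785 without YR612 and 0.0959 without YR615.

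*Prdx6*, a peroxiredoxin gene that reduces phospholipid peroxides, was at 160, 147 and 145 TPM in controls and at 117, 114 and 121 TPM in *Yap* cKO retinas. The groups did not overlap. Its fall was smaller, at 0.42 (log2; SE 0.084, 1.33-fold, edgeR adjusted p = 0.0477). Without YR612, YR615, YR711 or YR713 the adjusted p was 0.203, 0.155, 0.117 and 0.237, with sex as a covariate it was 0.0780, and with libraries scaled on the other Müller glia genes 0.0620.

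The 3 metallothionein genes lie in a row on chromosome 8, with 18518 bases between *Mt3* and *Mt2* and 5514 between *Mt2* and *Mt1*. Metallothioneins bind zinc and copper, and MTF1 binds metal response elements upstream of *Mt1* and *Mt2*. The 200 bases upstream of each of the 3 genes are shown with the same capitals.
Mt1, chr8:94178889-94179088, + strand: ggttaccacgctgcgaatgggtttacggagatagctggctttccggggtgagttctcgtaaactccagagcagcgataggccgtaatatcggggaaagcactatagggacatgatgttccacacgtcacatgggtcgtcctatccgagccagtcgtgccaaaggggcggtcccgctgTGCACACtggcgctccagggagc
Mt2, chr8:94172418-94172617, + strand: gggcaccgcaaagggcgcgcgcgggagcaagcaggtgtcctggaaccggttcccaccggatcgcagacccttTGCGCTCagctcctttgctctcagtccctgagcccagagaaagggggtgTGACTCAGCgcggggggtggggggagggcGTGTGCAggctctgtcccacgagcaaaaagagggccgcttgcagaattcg
Mt3, chr8:94152407-94152606, + strand: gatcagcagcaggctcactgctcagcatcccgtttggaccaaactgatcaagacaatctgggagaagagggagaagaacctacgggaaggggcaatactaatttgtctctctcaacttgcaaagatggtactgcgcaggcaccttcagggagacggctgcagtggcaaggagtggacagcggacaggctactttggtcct
The metal response element core was in 14 of the 41 member windows (34.1%), from 12 members, and in 21.4% of all windows. The 12 were *Acsl3*, *Cav1*, *Dbi*, *Dio2*, *Espn*, *Fxyd1*, *Gstm1*, *Mt1*, *Mt2*, *S100a16*, *Spc25* and *Tril*, of which *Dbi*, *Gstm1* and *S100a16* were called lower. The difference between these shares was not tested. The printed stretch of *Mt1* held 1 match and that of *Mt2* held 2, beside an antioxidant response element core, while that of *Mt3* held 0.

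*Mt3* was at 85.6, 76.2 and 93.7 TPM in controls and at 50.7, 51.9 and 68.2 TPM in *Yap* cKO retinas. Its groups did not overlap, with a log2 fold change of -0.64 ± 0.146 (SE) and an edgeR adjusted p of 0.0673. The adjusted p of *Mt3* was 0.0202 without YR613 and 0.00932 without YR714, but up to 0.290 without another retina. *Mt2* was at 142, 105 and 137 TPM in controls and at 63.4, 96.3 and 127 TPM in *Yap* cKO retinas. YR711 was lowest and YR714 lay within the control range, so the groups overlapped (log2 fold change -0.48 ± 0.233, adjusted p = 0.266). The adjusted p of *Mt2* was 0.0477 without YR714, but up to 0.568 without another retina. The *Yap* cKO retinas had the same order for *Mt1*, with 135, 104 and 140 TPM in controls and 74.4, 105 and 135 TPM in *Yap* cKO retinas (log2 fold change -0.32 ± 0.207, edgeR adjusted p = 0.382). The difference between *Mt3* and its neighbours was not tested.

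Of the genes around these members, the list for MTF1, zinc and iron handling had 11 genes tested, 7 lower and 4 higher, and none met all criteria (5 lower and 0 higher at an unadjusted p of 0.05, and none by DESeq2 or the likelihood ratio test). *Tfrc*, the transferrin receptor gene, fell by 0.57 with an adjusted p of 0.0337 but under the fold minimum. Of 20 tested genes of glutathione and peroxide metabolism, 16 were lower, with a median of -0.19, where 49.7% of all genes tested were lower. The median of these 20 was -0.08 with length-corrected offsets. Without that correction, all tested genes of at most 2000 exonic bases had a median of -0.15. *Prdx4*, a peroxiredoxin of the endoplasmic reticulum, was the only one of the 20 called. It was at 25.5 to 30.1 TPM in controls and 16.4 to 21.0 TPM in *Yap* cKO retinas (log2 fold change -0.65, edgeR adjusted p = 0.0448). *Gstm2*, a paralog of *Gstm1*, was at 2.61 to 4.51 TPM in controls and 0.174 to 1.44 TPM in *Yap* cKO retinas with an adjusted p of 0.0674. The mu-class genes and the metallothioneins are similar in sequence, and fragments that map to several places may be lost from them.

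The lipid handling role had 7 members tested, of which 5 had negative fold changes and 1 was called. *Dbi* (chr1:120113280-120121078), the acyl-CoA-binding protein gene, was at 309, 272 and 323 TPM in controls and at 195, 193 and 215 TPM in *Yap* cKO retinas. No *Yap* cKO retina reached the lowest control. *Dbi* fell by 0.64 on the log2 scale (SE 0.10, 1.56-fold lower, edgeR adjusted p = 0.0190). The adjusted p was 0.0972 without YR612, 0.110 without YR615, 0.0535 without YR711 and 0.108 without YR713, and the fold was under the minimum with length-corrected offsets (log2 -0.50).

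The apolipoprotein genes *Apoe* and *Clu* encode the main lipid carriers secreted by retinal glia. *Apoe* was at 1430, 1074 and 1389 TPM in controls and at 784, 1002 and 1158 TPM in *Yap* cKO retinas. YR714 lay above YR613, so the groups overlapped (log2 fold change -0.46 ± 0.165, edgeR adjusted p = 0.164). The adjusted p of *Apoe* was 0.0376 without YR613 and 0.0443 without YR714, but up to 0.444 without another retina. *Clu* was at 985, 864 and 977 TPM in controls and at 731, 831 and 822 TPM in *Yap* cKO retinas, with no overlap (log2 fold change -0.30 ± 0.096, adjusted p = 0.132). The adjusted p of *Clu* was 0.0359 without YR613, but up to 0.389 without another retina.

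*Acsl3*, an acyl-CoA synthetase gene of lipid droplets, was 1 of the 4 members above controls in every *Yap* cKO retina. It was at 345, 382 and 385 TPM in controls and at 404, 443 and 415 TPM in *Yap* cKO retinas. This difference of 0.13 on the log2 scale had an SE of 0.074 and an edgeR adjusted p of 0.338. The lipid transporter gene *Abca8a* (168 to 224 and 176 to 222 TPM) overlapped between the groups, and the lipid phosphatase gene *Plpp3* (66.3 to 70.3 and 55.7 to 63.9 TPM) did not, with adjusted p of 0.945 and 0.148.

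Of 19 further lipoprotein and acyl-CoA genes, 10 were lower and 9 higher, and 1 was called in each direction. *Acaa2*, a mitochondrial thiolase of fatty acid oxidation, fell by 0.69 (log2; 52.4 to 59.1 TPM in controls, 33.8 to 37.4 TPM in *Yap* cKO retinas, edgeR adjusted p = 0.0158). *Abca6*, a lipid transporter gene from the same cluster as *Abca8a*, rose by 0.996 on the log2 scale (7.08 to 12.1 against 17.1 to 20.5 TPM, adjusted p = 0.0271).

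*Ptgds*, encoding prostaglandin D2 synthase, had the most negative fold change of the members and the widest spread. It was at 587, 537 and 553 TPM in controls and at 114, 201 and 376 TPM in *Yap* cKO retinas. The *Yap* cKO retinas were all below the controls but differed among themselves, with a mean of 230 ± 133 TPM against 559 ± 25.4 TPM (SD, n = 3). The log2 fold change was -1.33 ± 0.342 (SE) with an edgeR adjusted p of 0.0892. The adjusted p of *Ptgds* was 0.0450 without YR613 and 0.000938 without YR714, but up to 0.328 without another retina.

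*Ptgds* is also a gene of the pigment epithelium and the meninges, so its level was set beside markers of the pigment epithelium, a layer outside the neural retina that can come away with it. All 13 such markers were tested, of which 12 had lower levels (median log2 fold change -0.75) and 1, *Pmel*, was called. None was at 0 in all retinas, and the defining gene *Rpe65* was at 70.5, 77.3 and 77.5 TPM in controls and at 14.3, 30.7 and 68.6 TPM in YR711, YR713 and YR714. Relative to the control mean, the summed list stood at 0.289, 0.553 and 0.968 in these 3 retinas, and *Ptgds* at 0.204, 0.359 and 0.672, in the same order. This order was not particular to *Ptgds*, since *Apoe*, *Mt1*, *Mt2*, *Mt3*, *Pdpn* and the median of the members also had it. *Dapl1* did not have this order, at 0.593, 0.535 and 0.575, and *Rlbp1* was at 0.828, 0.767 and 0.843. The list was not uniform in YR714, where *Rpe65* and *Ttr* were near their control levels while the pigment genes *Pmel* (3.96 against 19.7 to 26.3 TPM in controls) and *Dct* (12.6 against 26.6 to 31.1 TPM) were not. *Ttr* supplies much of the sum, and without it the 12 remaining genes summed to 308 to 330 TPM in controls and to 78.9, 163 and 290 TPM in the *Yap* cKO retinas. The part of pigment epithelium RNA in the results for *Ptgds*, *Dapl1* and *Rlbp1* was not tested.

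**Figure D4:**
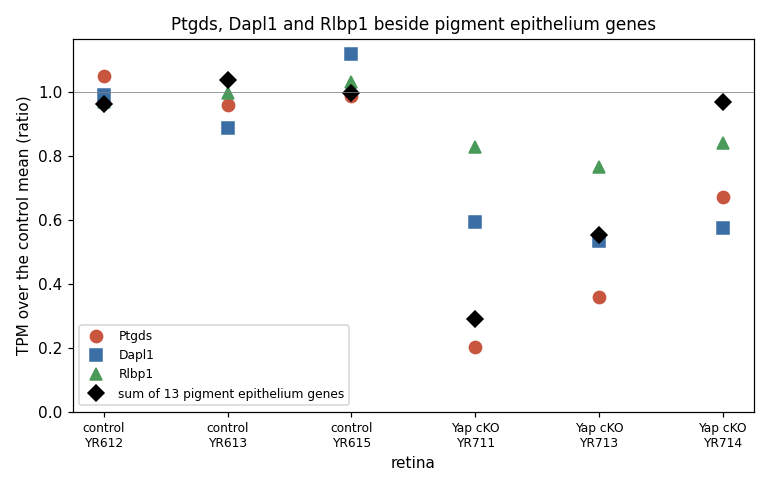
TPM of *Ptgds*, *Dapl1* and *Rlbp1* and the summed TPM of 13 pigment epithelium genes in each retina, each divided by its control mean (vertical axis from 0, line at the control mean). *Ptgds* and the pigment epithelium sum share the order YR711, YR713, YR714 from 0.204 and 0.289 up to 0.672 and 0.968, while *Dapl1* stays between 0.535 and 0.593. Other members not drawn here, such as *Apoe*, also had this order.

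Markers of the ciliary body and retinal margin also moved with genotype. Of 14 tested, 12 were lower with a median of -1.14 and 5 were called lower, with *Optc* (opticin) at 45.6 to 50.2 TPM in controls and 2.44 to 8.39 TPM in *Yap* cKO retinas, followed by *Fbln1*, *Col9a2*, *Slc26a4* and *Cldn2*. The whole list of 15 genes summed to 478 to 506 TPM in controls and 398 to 492 TPM in *Yap* cKO retinas. Its most abundant gene, *Aqp1*, was at 224 to 238 and 262 to 316 TPM, and without it the sums were 251 to 283 and 128 to 176 TPM. Astrocyte markers summed to 114 to 135 and 109 to 117 TPM, and *Aldh1l1*, which Müller glia also express, was the one called of 6 (log2 fold change -0.79, edgeR adjusted p = 0.00437). Of the connective tissue list, with 6 of 8 genes tested and sums of 31.5 to 39.3 and 13.7 to 21.0 TPM, *Slc6a13* was called lower. No endothelial, pericyte, microglial or oligodendrocyte marker and no rod gene was called by edgeR or DESeq2, and in none of these lists were more than 1 gene lower and 2 higher at an unadjusted p of 0.05. The part of these cells in the members' values was not tested.

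Neither gene of the thyroid hormone role passed the test. In both, every *Yap* cKO retina was above every control, as was the case for 15.2% of all genes tested. *Dio2* encodes the deiodinase that makes active thyroid hormone and was at 18.6, 21.0 and 30.6 TPM in controls and at 31.4, 87.6 and 80.3 TPM in *Yap* cKO retinas. YR711 was barely above the highest control, while YR713 and YR714 were far above it. The log2 fold change was 1.46 ± 0.339 (SE, a 2.74-fold higher level) and the edgeR adjusted p was 0.0713. It was singled out after its values were seen.

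Sex is not given in the labels and was read from *Xist* and *Ddx3y*, by which YR615, YR713 and YR714 were female. These are the retinas with the highest *Dio2* within their groups. With sex as a covariate the log2 fold change of *Dio2* was 1.01 with an adjusted p of 0.0351, and without YR711 it was 1.79 with an adjusted p of 0.00270. Without another retina the edgeR adjusted p of *Dio2* was up to 0.289. *Crym*, encoding a cytosolic thyroid hormone-binding protein, was at 82.4 to 104 TPM in controls and 106 to 120 TPM in *Yap* cKO retinas (log2 fold change 0.15 ± 0.116, edgeR adjusted p = 0.454).

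Of 9 further genes of this pathway, 7 were higher and 2 lower, with a median of 0.09. *Dio3*, whose product inactivates thyroid hormone, fell by 1.07 (log2; 4.41 to 5.77 TPM in controls, 1.85 to 3.11 TPM in *Yap* cKO retinas, edgeR adjusted p = 0.0477). The receptor gene *Thrb* was at 35.3 to 46.6 and 46.4 to 52.0 TPM (adjusted p = 0.152), and *Klf9* and *Hr*, genes that respond to the hormone, had adjusted p of 0.422 and 0.185.

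None of the 8 membrane, ion and contact genes was called by the edgeR quasi-likelihood or likelihood ratio test. Of these, 7 had negative fold changes and 4 had an unadjusted p of at most 0.05. The groups did not overlap in 5, with *Mlc1*, *Hepacam*, *Fxyd1* and *Cav1* lower and *Atp1b2* higher. Over all genes tested, the groups did not overlap in 9.04% with *Yap* cKO lower and 15.2% with *Yap* cKO higher. *Mlc1*, a membrane protein gene of glial endfeet, was at 210 to 221 TPM in controls and 189 to 195 TPM in *Yap* cKO retinas (log2 fold change -0.23 ± 0.073, edgeR adjusted p = 0.136). *Hepacam* encodes the adhesion protein that escorts MLC1 to cell junctions, and its level was much lower, at 4.66, 4.14 and 4.16 TPM in controls and 2.85, 1.44 and 1.97 TPM in *Yap* cKO retinas. These values rested on 95 to 107 fragments in controls and 42 to 61 in *Yap* cKO retinas. *Hepacam* had a log2 fold change of -1.13 ± 0.231 and its edgeR adjusted p of 0.0506 just missed the threshold. This adjusted p was 0.0257 without YR613, 0.0209 without YR711 and 0.0393 without YR714, but up to 0.213 without another retina.

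*Atp1b2*, the glial beta subunit of the sodium pump, was the most abundant of these genes. It was at 1286, 1264 and 1168 TPM in controls and at 1455, 1473 and 1305 TPM in *Yap* cKO retinas. All *Yap* cKO retinas were above the controls, by 0.13 on the log2 scale with an SE of 0.081 (edgeR adjusted p = 0.375). *Fxyd1*, a regulator of the same pump, was at 33.6 to 42.3 TPM in controls and 28.9 to 30.4 TPM in *Yap* cKO retinas (log2 fold change -0.45 ± 0.117, adjusted p = 0.0888). The adjusted p of *Fxyd1* was 0.0145 without YR613, but up to 0.326 without another retina.

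The caveolin gene *Cav1* was at 76.1 to 91.2 TPM in controls and 52.0 to 74.4 TPM in *Yap* cKO retinas, without overlap (log2 fold change -0.49 ± 0.117, edgeR adjusted p = 0.0750). The adjusted p of *Cav1* was 0.0209 without YR711, but up to 0.311 without another retina. *Ttyh1*, a chloride channel family gene, *Cd9*, a tetraspanin gene, and *Gpr37*, an orphan receptor gene, overlapped between the groups, with log2 fold changes of -0.10, -0.01 and -0.05. The sign for *Cd9* turned positive with other scalings, at 0.01 when the libraries were scaled on the other Müller glia genes.

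Partners of these membrane proteins were read from a further list. *Gja1*, the gap junction gene for connexin 43, was called lower, at 7.84 to 9.15 TPM in controls and 1.42 to 3.78 TPM in *Yap* cKO retinas (log2 fold change -1.86, edgeR adjusted p = 0.0187). The cells in which *Gja1* fell were not determined. A further beta subunit gene of the sodium pump, *Atp1b3*, fell by 0.54 with an adjusted p of 0.0231 but under the fold minimum, whereas its paralog *Atp1b2* had a positive fold change.

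No receptor or protease gene of the list passed the edgeR test, also at an unadjusted p of 0.05, and the likelihood ratio test called none. *Notch1* was at 6.85 to 8.37 TPM in controls and 6.83 to 9.53 TPM in *Yap* cKO retinas (log2 fold change 0.06 ± 0.121, edgeR adjusted p = 0.789), and it overlaps another gene on its strand, as does *Acsl3*. *Tril*, a Toll-like receptor accessory gene, was at 11.6 to 12.4 and 12.3 to 14.3 TPM. *Fgfr3*, with 11 to 23 fragments per retina, was too low for a difference of this size to be detectable, at a log2 fold change of -0.43 ± 0.309. The serine protease gene *Htra1* was at 111 to 125 and 117 to 138 TPM, and *Prss56*, a second serine protease gene, at 26.2 to 45.1 and 38.6 to 57.0 TPM (adjusted p = 0.287).

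The families of these receptors were read from further lists, chosen with earlier results of these data known. Of 17 Notch pathway genes 9 were lower and 8 higher, and none was called by edgeR, DESeq2 or the likelihood ratio test (2 lower and 1 higher at an unadjusted p of 0.05). Of 10 FGF receptor and target genes, *Fgfr1* and *Fgfr2* fell with adjusted p of 0.0329 and 0.0247 (log2 fold changes -0.56 and -1.19) but did not meet all criteria. *Etv5*, a transcription factor gene induced by FGF signalling, rose from 27.0 to 28.9 TPM in controls to 41.0 to 54.1 TPM in *Yap* cKO retinas (log2 fold change 0.73, adjusted p = 0.0158).

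Fold changes in these libraries moved with gene length. Over all 16575 genes tested, Spearman's rho between log2 fold change and exonic length was 0.391, and over the 34 members it was 0.523; both are given as descriptions, since genes of the same retinas are not independent. Genes of at most 2000 exonic bases had a median log2 fold change of -0.15. The 9 members of that length had a median of -0.64 and the 25 longer members one of -0.10. All 5 called members were among the 9 short ones, where 0.95% of the 3052 tested genes of that length were called lower.

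**Figure D5:**
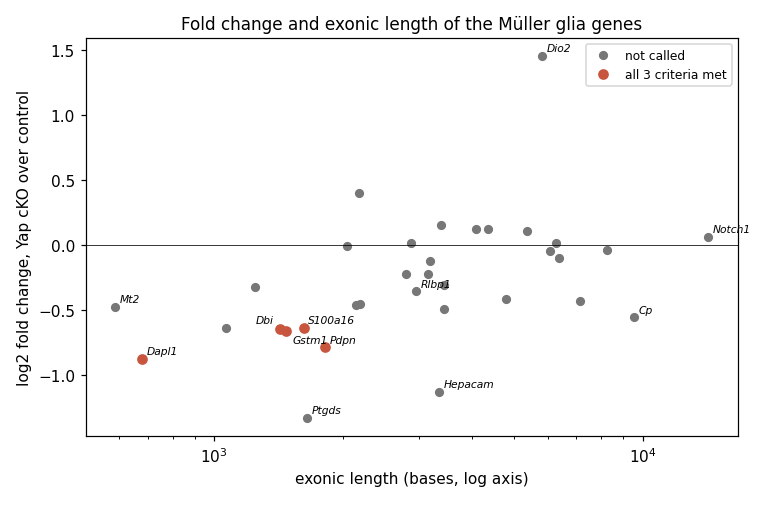
Log2 fold change of each tested member (vertical axis) against its exonic length in bases (horizontal log axis), with members that met all criteria in red. The 5 red points, from -0.88 to -0.64, all lie at or under 2000 bases, while *Cp* and *Hepacam* are longer and also negative and *Dio2* is longer and positive.

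When the trend with length was removed by offsets fitted over all genes, the median of the members was -0.22 and 26 of 34 were lower. In the same fit the median was -0.063 over the 27 other Müller glia genes and -0.0002 over all genes tested. *Dapl1* (-0.72), *Pdpn* (-0.66) and *Cp* (-0.71) met all criteria, 3 members against 0.603% of all genes called lower. *Gstm1* (-0.51), *Dbi* (-0.50) and *S100a16* (-0.49) kept adjusted p of 0.0260, 0.00311 and 0.0166 in the edgeR fit but were under the fold minimum. In all, 10 members were lower with an adjusted p of at most 0.05 in this fit, against 1.56% of all genes, including *Rlbp1* (0.0395), *Mt3* (0.0326) and *Hepacam* (0.0389). With the edgeR likelihood ratio test in place of the quasi-likelihood test and no length correction, 8 members were called, which were the same 5 with *Mt3* and *Ptgds* lower and *Dio2* higher; 1.01% of all genes were called lower by that test.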

How the data were processed

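RNA of 6 whole retinas was sequenced as stranded poly(A) libraries with paired-end reads. The authors aligned reads to GRCm38 with STAR 2.7.3a (per the submitters' processing notes) and counted fragments per gene on exons with featureCounts 1.6.2 and strand setting 2, using release 98 of the Ensembl annotation (per the file header). The deposited values are raw counts of fragments per gene, without normalization. Samples were grouped by the genotype in the labels.

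Here, counts were converted to TPM with the exonic length that the table gives. Genes kept by filterByExpr were normalized by TMM and tested with the edgeR 4.0.16 quasi-likelihood test in R 4.3.3, with Benjamini-Hochberg adjustment over all 16575 genes. The criteria (adjusted p at most 0.05, fold change at least 1.5, mean of at least 5 TPM in 1 group) are those of the study's methods, which name edgeR but not its test. Alternatives used DESeq2 1.42.0, limma 3.58.1, other size factors, no low-count filter, length or GC offsets (loess, span 0.3), sex as a covariate and leaving out each retina. For single values, the smallest two-sided p of an exact permutation test between 3 and 3 retinas is 0.1, so none was used. The pipeline was tested on simulated data.

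Members and lists were chosen with earlier results of these data known. All members were described; values in every retina were given for those called or with an adjusted p of at most 0.05, for the 6 with the highest control level and for the metallothioneins. *Hepacam* and *Dio2* were added after their values were seen. From other lists, called genes and partners of a member were named, except for 1 item that is not reported here. Promoter windows came from RefSeq (GRCm38.p6). Depth was 24261799 to 35067068 counts per retina. The p-values measure the spread between 3 mice per group.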

Additional observations from a re-analysis of the deposited data

How the results depend on the processing

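The median log2 fold change of the members was negative under every alternative that gave one and moved by less than the spread between retinas. The number of members called, 5, was 8 with the edgeR likelihood ratio test, 8 without the low-count filter and 3 with length-corrected offsets, while the share of all tested genes called was 0.796% at first and 1.76%, 1.22% and 0.845% in these fits. The number with an adjusted p of at most 0.05, 7, was 13 with DESeq2, 14 with the likelihood ratio test, 14 with that test and length-corrected offsets, 19 without the filter and 11 with GC-corrected offsets. The share of all genes at that adjusted p was 1.49% at first and 5.38%, 6.18%, 6.36%, 6.19% and 3.19% in these fits. Leaving out 1 retina gave 1 (without YR615) to 10 (without YR714) called members and 1 to 14 with an adjusted p of at most 0.05. Without YR612 there were 2 called, without YR613 8, without YR711 4 and without YR713 3. The cause of these differences was not tested. Over all genes, between 38 (without YR615) and 516 (without YR613) were called in these fits, against 132 with all retinas. Without YR714 it was 448, so lower adjusted p-values without YR613 or YR714 were not particular to the members.

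Some members near 0 changed sign, none of them past the threshold. *Abca8a* was at -0.028 with upper quartile size factors, -0.045 with length-corrected offsets (-0.0446 with the likelihood ratio test) and -0.041 with GC-corrected offsets. *Htra1* was at -0.028 with upper quartile size factors and -0.029 with sex as a covariate. *Cd9* was at 0.013 when scaled on the other Müller glia genes, and at 0.10 with length-corrected offsets under either test. *Notch1* was at -0.19 with length-corrected offsets under either test. *Espn* was at 0.067 with GC-corrected offsets and *Gpr37* at 0.029 with sex as a covariate. With 1 retina left out, the ranges were -0.074 to 0.14 for *Abca8a*, -0.29 to 0.11 for *Espn*, -0.25 to 0.060 for *Gpr37*, -0.075 to 0.071 for *Htra1*, -0.040 to 0.028 for *Cd9*, -0.045 to 0.17 for *Notch1* and -0.33 to 0.019 for *Spc25*. Of the 612 member values under alternatives, 499 kept their direction and their side of the threshold.

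With 3 mice per group, unequal numbers of each sex between groups and no cell-type separation, differences under about the spread of the controls were not detectable. No paired analysis was possible because each retina came from a different mouse and the labels give no litter or batch by which to pair them.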
